A study of Homo sapiens with 3 samples.

Results

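SOX genes encode transcription factors that share the HMG box, a DNA-binding domain that inserts into the minor groove and bends the helix. Their transcripts were measured in KYSE140 cells, a human line derived from a squamous carcinoma of the oesophagus. The members described are SOX2, SOX4, SOX6, SOX7, SOX9, SOX12, SOX13 and SOX15. They were taken as named genes and not by a rule on their values, with earlier results of these data known. Every probe set that the platform annotation assigns to 1 of these symbols alone was kept, which gave 29 probe sets of 54675 on the array, and 8 genes of 19775. The samples were 2 arrays of cells treated for 12 h with cisplatin, which forms platinum adducts on DNA (B1 and B2), and 1 array of untreated cells, all grown in RPMI with serum and antibiotics. The labels give the concentration as 10 mM, a unit that is doubtful because cultures usually receive micromolar cisplatin. B1 and B2 are not labelled as separate cultures, so the spread between them could be technical. A p-value here rests on that spread, pooled with that of all probe sets, and the single untreated array adds none.

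In squamous epithelium SOX2 works with the p53 relative p63 to hold the basal cell state, and its gene lies on chromosome arm 3q, which is often gained in squamous carcinomas. The family is split by sequence into subgroups that tend to act alike. SOX2 belongs to SOXB, SOX4 and SOX12 to SOXC, SOX6 and SOX13 to SOXD, SOX9 to SOXE, SOX7 to SOXF and SOX15 to SOXG. SOXC factors are activators found in progenitor and tumour cells, SOXD factors have no activation domain of their own, SOX9 marks cartilage and many epithelial progenitors, and SOXF factors act in vessels and restrain Wnt signalling.

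Promoter windows from RefSeq (GRCh38.p14) were used for 5 of the 8 members. The 250 bases upstream of the annotated start are shown 5′ to 3′ on the gene's strand for SOX2 and SOX4, which lay at least 2-fold from untreated on different arrays, and for the SOXD genes SOX13 and SOX6. Capitals mark exact matches on either strand, overlapping ones included. The core SOX site was searched only as ACAAT, and other forms of it were not searched. The CCAAT box was searched by its name. The TATA box was searched as TATAAA. The GC box was searched as GGGCGG.
SOX2, chr3:181711675-181711924, plus strand: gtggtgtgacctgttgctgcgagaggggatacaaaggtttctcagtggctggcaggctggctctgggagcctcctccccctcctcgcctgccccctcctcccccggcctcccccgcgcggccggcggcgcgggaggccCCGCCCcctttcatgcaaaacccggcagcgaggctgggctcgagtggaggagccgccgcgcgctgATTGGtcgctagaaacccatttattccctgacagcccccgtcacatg
SOX4, chr6:21593501-21593750, plus strand: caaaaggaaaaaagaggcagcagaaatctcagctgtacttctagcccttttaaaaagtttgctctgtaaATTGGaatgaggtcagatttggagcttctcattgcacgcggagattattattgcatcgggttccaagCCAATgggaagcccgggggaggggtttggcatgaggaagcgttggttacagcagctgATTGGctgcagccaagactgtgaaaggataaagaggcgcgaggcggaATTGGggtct
SOX13, chr1:204072865-204073114, plus strand: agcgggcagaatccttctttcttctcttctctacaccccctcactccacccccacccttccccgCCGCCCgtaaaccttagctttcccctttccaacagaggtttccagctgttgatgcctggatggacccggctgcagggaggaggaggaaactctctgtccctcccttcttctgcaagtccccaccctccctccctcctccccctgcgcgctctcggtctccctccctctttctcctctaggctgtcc
SOX6, chr11:16738478-16738727, minus strand: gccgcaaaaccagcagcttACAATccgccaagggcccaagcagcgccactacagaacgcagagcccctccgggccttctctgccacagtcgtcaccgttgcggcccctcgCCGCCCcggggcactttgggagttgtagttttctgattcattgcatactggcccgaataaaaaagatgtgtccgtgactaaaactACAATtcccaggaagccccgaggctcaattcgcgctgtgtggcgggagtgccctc
The SOX4 window held 4 CCAAT matches, whereas 32% of all 35116 promoter windows held at least 1 and 0.874% held at least 4. The SOX2 window held 1 CCAAT match and 1 GC box, and 42.6% of windows held a GC box. Neither the SOX2 nor the SOX4 window contained ACAAT, which 24.6% of windows contained. This does not show that a SOX site is absent, because other forms were not searched. The SOX6 window, for the first of 5 annotated starts, held 2 ACAAT matches and 1 GC box, and the SOX13 window 1 GC box. None of these 4 windows contained TATAAA, which 10.7% of all windows contained. Windows of the SOX6 starts 2, 3 and 5, not shown, held 1, 2 and 2 TATAAA matches. At starts 3 and 5 the 2 matches overlap on opposite strands, so each pair is 1 stretch of letters. GC content was 68.8% for SOX2, 48.8% for SOX4, 60.8% for SOX13 and 58.8% for SOX6, against a median of 58% over all windows. It was lower at the SOX6 starts 2 to 5, from 27.2% to 40.8%. A match is a string of letters and was not tested as a binding site.

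The deposited values are linear intensities from RMA, a method that corrects background, normalizes arrays and summarises probes, and they were used on the log2 scale. Array medians were close, at 35.8 in B1, 35.5 in B2 and 34.7 in the untreated array. Array B2 stood apart from the others, although the labels give it the same line and treatment as B1. Whether it matches those labels was not tested, so a difference seen in B2 only is given as one of that array and not as an effect of cisplatin. Over 54613 probe sets, 108 that were at a log2 level of at least 6 in the untreated array were at least 8-fold lower in B2, against 1 in B1, and the SD of the log2 difference was 0.54 for B2 minus untreated and 0.34 for B1 minus untreated. Of 15 squamous markers 12 were measured, all with a mean log2 level of at least 6, and their summed intensity was 32382 in B1, 52949 in B2 and 31708 in the untreated array. KRT14, a basal keratin, was at 276, 2372 and 278 on the same arrays. KRT8, a keratin of simple epithelia, was at 2946, 1418 and 2921. None of 6 leukocyte and none of 6 endothelial markers measured reached a mean log2 level of 6. Of 9 fibroblast markers 2 did, COL1A1 and THY1, and the list summed to 387, 479 and 356. Of 9 columnar markers only KRT8 and KRT18 did, with sums of 13538, 8099 and 13083, and of 3 glial markers only MBP, with sums of 159, 227 and 282. The squamous markers without a single-symbol probe set were KRT6A, KRT17 and TP63. The part of these differences in the SOX values was not tested, and each result below is given for B1 and for B2.

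The comparison asked which SOX transcripts differed after cisplatin. SOX2 was 2.34-fold lower in B1 only, SOX4 was 2.14-fold higher in B2 only, and SOX7 was lower in B2 only, at an intensity of 6.28 in B2 against 200.0 in the untreated array, each by the brightest probe set of the gene. Each of these differences was seen on 1 of the 2 cisplatin arrays, so none is a 2-fold difference shared by the treated samples. SOX9 lay above untreated in B1 and below it in B2, by 0.58 and -0.21 on the log2 scale. SOX13 was 1.29-fold lower in both. No member probe set was at least 2-fold higher, or at least 2-fold lower, in both cisplatin arrays, a rule that 0.233% and 0.659% of all probe sets met. Of the 29 probe sets, 12 were higher and 5 lower than untreated in both arrays, or 41.4% and 17.2%. Over all probe sets the shares were 39.3% and 28.3%. No probe set of any gene passed limma's moderated test at an adjusted p of 0.05 (0% higher and 0% lower of 54613, smallest adjusted p = 0.95), while 3.96% had an unadjusted p under 0.05. Among the members 1 of 29 had one, a dim SOX6 probe set. The test had 1 residual degree of freedom, and on simulated data it called none of the changed probe sets, the largest changes included. A count of 0 calls therefore does not show that values were alike.

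**Figure D1:**
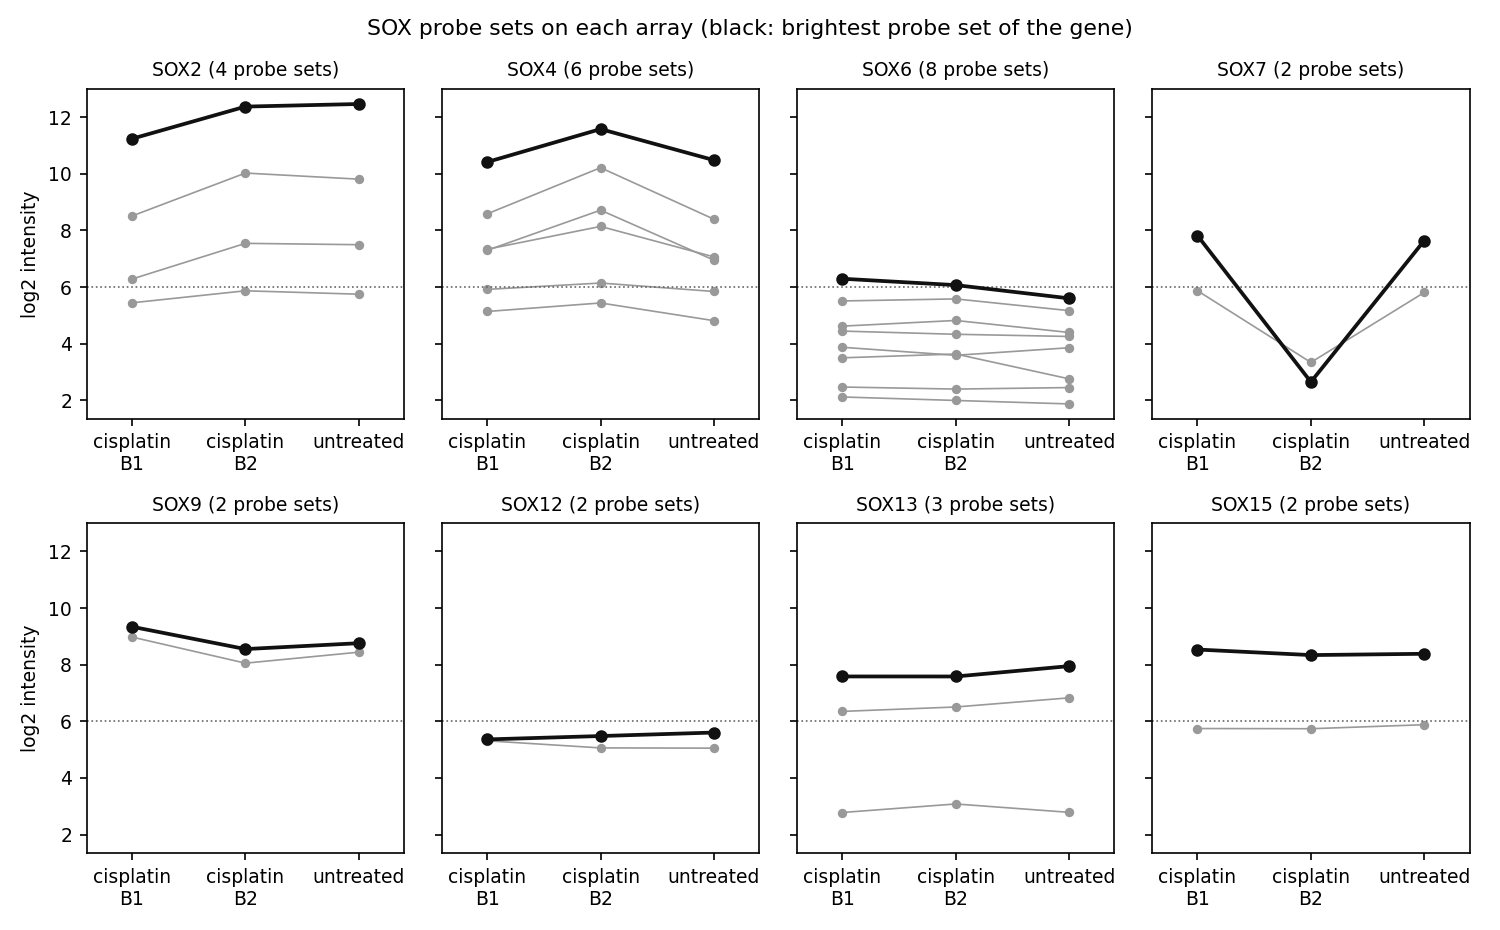
Log2 intensity of each of the 29 SOX probe sets (lines) on cisplatin B1, cisplatin B2 and untreated arrays, 1 panel per gene, with the brightest probe set in black. The dotted line is a log2 level of 6. SOX2 is lowest in B1, SOX4 highest in B2 and SOX7 lowest in B2, while SOX15 and SOX13 stay within 0.5 of untreated in their brighter probe sets.

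The differences of B1 and of B2 share the 1 untreated array, so they are set side by side and not treated as independent. In B1, 3 member probe sets were at least 2-fold lower and 0 higher, all 3 of SOX2. Over all probe sets the shares were 1.31% and 0.368%. In B2, 2 were at least 2-fold lower, both of SOX7, and 4 higher, all of SOX4, against 3.85% and 2.24% of all probe sets. B1 and B2 themselves lay at least 2-fold apart for 8 of the 29, against 4.72% of all probe sets. These 8 belong to SOX2, SOX4 and SOX7, and probe sets of 1 gene read the same transcript, so they are not separate observations. Over the 29 the median log2 difference was 0.15 in B1 and 0.08 in B2. Over all genes, each by its brightest probe set, it was 0.03 and 0.05, and over the 8 members by theirs 0.04 and -0.11.

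**Figure D2:**
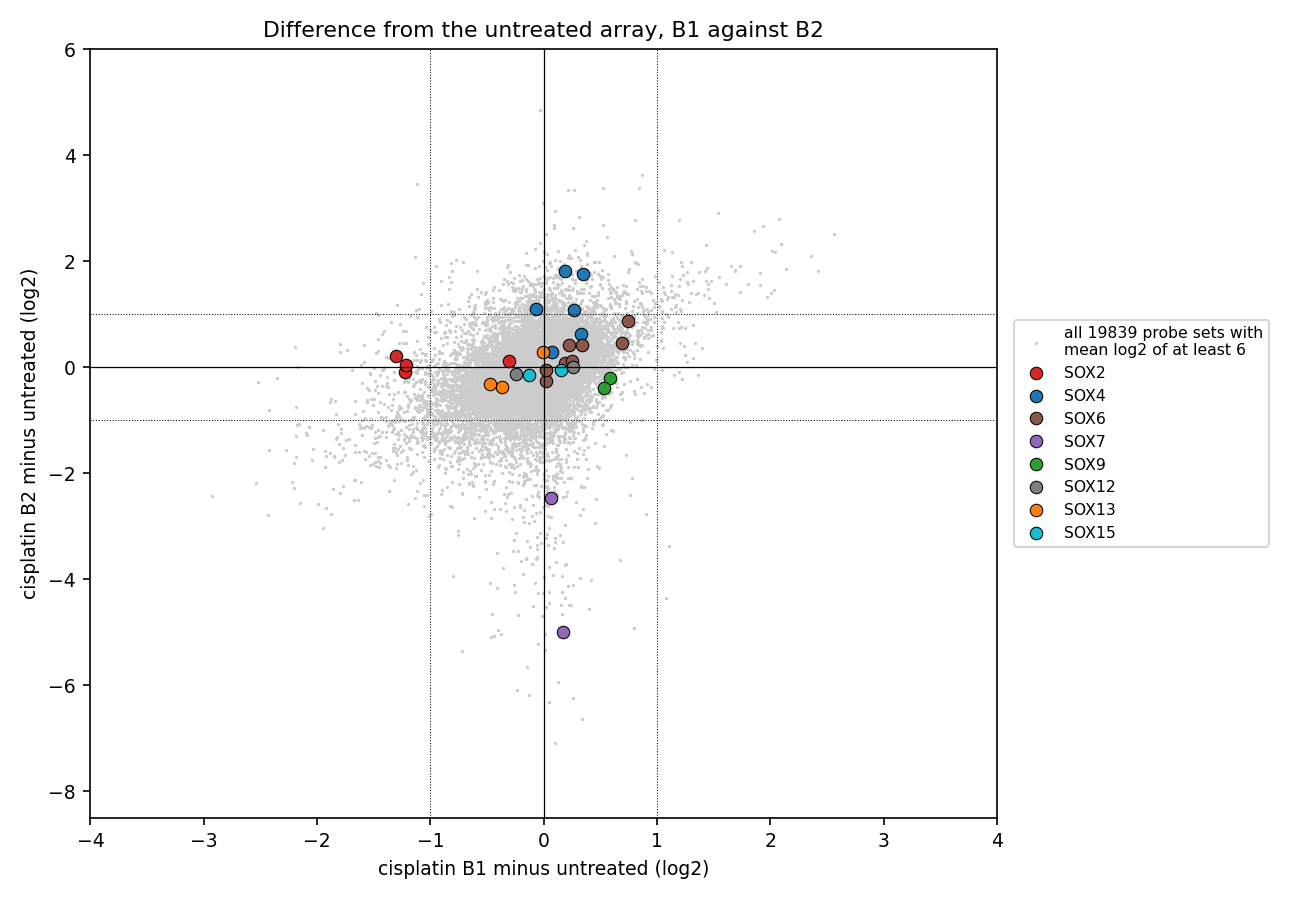
Log2 difference from the untreated array in cisplatin B1 (horizontal) and cisplatin B2 (vertical) for the 29 SOX probe sets (coloured) and for 19839 probe sets with a mean log2 level of at least 6 (grey). Dotted lines mark 2-fold. SOX2 lies left along the B1 axis, SOX4 up and SOX7 down along the B2 axis, and no SOX probe set lies beyond 2-fold on both axes in 1 direction.

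SOX2, a pioneer factor of stem and squamous basal cells, was covered by 4 probe sets. The brightest, 228038_at, had an intensity of 2416 in B1 and 5308 in B2, against 5656 in the untreated array. Array B1 was low and B2 lay close to untreated, with log2 differences of -1.23 and -0.09. The probe set 213721_at read 365 and 1043 on the cisplatin arrays, against 899 untreated, and 213722_at read 77.9 and 187, against 181. On both of these B1 lay below untreated and B2 slightly above it. The dim 214178_s_at read 43.6 and 58.5, against 53.8. Across the 4, B1 differed by -1.30 to -0.30 and B2 by -0.09 to 0.21 on the log2 scale. Of 19839 probe sets with a mean log2 level of at least 6, 1.13% were as low as the brightest in B1. The fitted difference of the brightest was -0.66 (SE 0.58; limma adjusted p = 0.95, over 2 cisplatin arrays and 1 untreated array), and the cisplatin arrays differed from each other by more than their mean differed from untreated. In a bulk culture, fewer cells with a transcript and less of it per cell cannot be told apart.

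None of the 8 measured genes nearest SOX2 was 2-fold lower in B1 by its brightest probe set. SOX2-OT is a long noncoding transcript whose gene encloses SOX2. Its only probe set with 1 symbol read 59.5 in B1 and 28.2 in B2, against 64.8 untreated, so it was low in B2 where SOX2 was not. LINC01206, the next noncoding gene downstream, was singled out after its values were seen. It read 231 and 222 on the cisplatin arrays, against 455 untreated, by its brightest probe set, and 226 and 185, against 444, by the other. Both cisplatin arrays were low, with log2 differences of -0.98 and -1.03 and of -0.97 and -1.26 (limma unadjusted p = 0.0092 and 0.013, adjusted p = 0.95 for each). The second probe set missed the 2-fold rule in B1, as did the first. The coding neighbours FXR1 (-0.13 in B1 and 0.66 in B2), DNAJC19 (-0.09 and 0.59), ATP11B (-0.31 and 0.91) and DCUN1D1 (-0.45 and 0.58) were higher in B2 and lower in B1. The outermost of the 8, TTC14 (-0.12 and -0.02) and MCCC1 (-0.02 and 0.28), lay nearer to untreated. FXR1 encodes an RNA-binding protein, DNAJC19 a mitochondrial co-chaperone, ATP11B a lipid flippase and DCUN1D1 a neddylation factor.

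**Figure D3:**
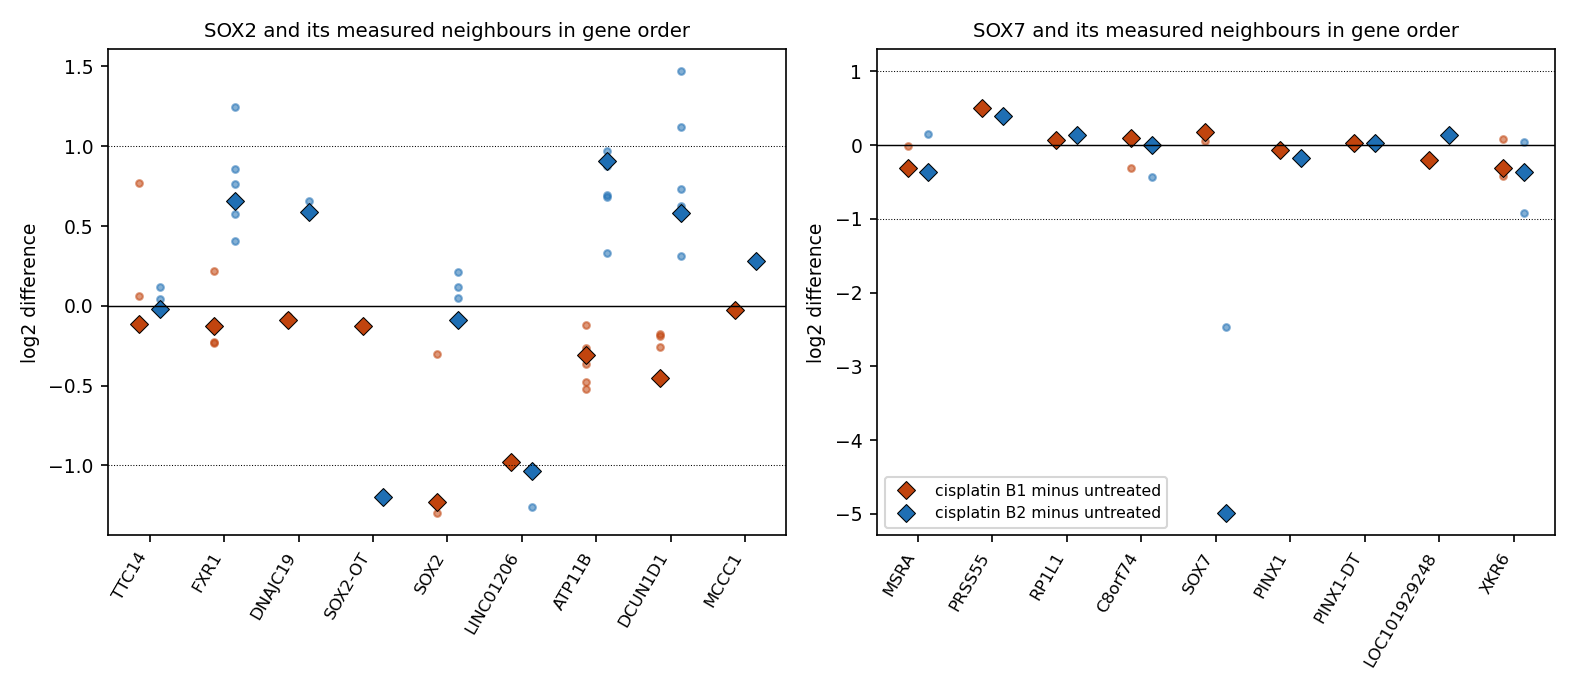
Log2 difference from the untreated array for SOX2 (left) and SOX7 (right) and the 4 measured genes on each side, in gene order and not to distance. Diamonds are the brightest probe set of each gene, small points its other probe sets, red for cisplatin B1 and blue for cisplatin B2. SOX2 is low in B1 and LINC01206 in both, while SOX7 is low in B2 beside neighbours within 0.50 of untreated by their brightest probe sets.

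SOX4 and SOX12 are the SOXC members. SOX4, an activator in progenitors and in cells responding to TGF-beta, had 6 probe sets. The brightest, 201417_at, read 1366 in B1 and 3062 in B2, against 1431 untreated. Next came 201416_at, with 384 and 1189, against 337, and 213668_s_at, with 157 and 421, against 124. B2 was high on all 3, and B1 differed from untreated by at most 1.27-fold. The probe set 201418_s_at read 162 and 283, against 134, 1567906_at read 60.5 and 70.7, against 57.5, and 213665_at read 35.2 and 43.4, against 28.1. Over the 6, B2 differed by 0.30 to 1.82 and B1 by -0.07 to 0.35 on the log2 scale. Of the 6, 5 were higher than untreated in both arrays, beside 39.3% of all probe sets. Probe set 201416_at was 3.53-fold higher in B2, where 0.494% of the brighter probe sets were as high. The fitted difference of the brightest was 0.52 (SE 0.59; limma adjusted p = 0.95), and -0.07 with B1 alone. SOX12, the weaker activator of the same subgroup, was dim. Its probe set 204432_at read 41.1 and 44.7 on the cisplatin arrays, against 48.7 untreated, and 228358_at read 39.7 and 33.4, against 33.2. The first lay below untreated on both cisplatin arrays (-0.24 and -0.12 on the log2 scale) and the second above it (0.26 and 0.01), so no direction can be given for SOX12.

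SOX7, the SOXF member, showed the largest difference of the 29 probe sets. Probe set 228698_at read 226 in B1 and 6.28 in B2, against 200.0 in the untreated array. Probe set 224013_s_at read 58.6 and 10.1, against 56.2. B1 was near untreated on both, and B2 was low on both. Their log2 differences were 0.17 and 0.06 in B1 and -4.99 and -2.47 in B2. The B2 intensity of 228698_at lies under that array's median of 35.5 and near its lowest value of 3.26, so no exact fold is given. The fit gave -2.41 (SE 2.50; limma adjusted p = 0.95), or -1.56 on the log2(intensity + 16) scale, and with B1 alone the difference was 0.17. The 8 measured neighbours on chromosome 8 differed by -0.37 to 0.40 in B2 by their brightest probe sets, and none by 2-fold. Among them PINX1, a telomerase inhibitor, read 109 and 101, against 114 untreated, and C8orf74 39.1 and 36.5, against 36.6.

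SOX9, the SOXE member and a factor of epithelial progenitors and cartilage, had 2 probe sets. Probe set 202936_s_at read 648 in B1 and 375 in B2, against 433 untreated, and 202935_s_at read 504 and 266, against 348. On each, B1 was above and B2 below untreated, so the cisplatin arrays straddled it. The log2 differences were 0.58 and 0.53 in B1 and -0.21 and -0.39 in B2. Of the brighter probe sets, 2.36% were as high in B1 as the first. The fitted difference was 0.19 (SE 0.42; limma adjusted p = 0.96). Cartilage genes that SOX9 activates were mostly dim. All 8 listed were measured and 2 reached a mean log2 level of 6, the collagen gene COL11A2 (0.31 and 0.30) and the cartilage-derived MIA (0.43 and 0.39). None was 2-fold different in both arrays.

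SOX13 and SOX6 are the SOXD members. SOX13, which also represses TCF-driven transcription, read 192.02 in B1 and 191.93 in B2, against 247 untreated, by 209736_at. Probe set 38918_at read 81.6 and 90.9, against 114. Both cisplatin arrays lay below untreated on each, with log2 differences of -0.36 and -0.36 for the first and -0.48 and -0.32 for the second (fitted -0.36, SE 0.18, and -0.40, SE 0.19; limma unadjusted p = 0.12 for each, adjusted p = 0.95). On both probe sets B1 and B2 lay on the same side of untreated. Of probe sets with a mean log2 level of at least 6, 16% were as low as 209736_at in B1 and 25.7% in B2. For 38918_at the shares were 11.1% and 27.8%. The dim probe set 1569111_at read 6.87 and 8.47, against 6.90, far under the array medians.

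SOX6, which in other tissues works beside SOX5 and SOX9, had 8 probe sets, all with a mean log2 level under 6 and intensities from 3.67 to 78.5. The brightest, 235526_at, read 78.5 and 67.2 on the cisplatin arrays, against 48.6 untreated (log2 0.69 and 0.47; fitted 0.58, SE 0.21; limma unadjusted p = 0.063, adjusted p = 0.95). Probe set 228214_at read 45.6 and 47.9, against 36.0, and 227498_at read 11.3 and 12.4, against 6.77. Both cisplatin arrays were higher on these 3, and on 6 of the 8, beside 39.3% of all probe sets. The 8 belong to 1 gene, so they are not separate observations. The remaining 5 differed from untreated by -0.27 to 0.42 on the log2 scale. The gene spans 772 kb, the longest of the 8 members, and SOX13 spans 54.6 kb. The other members span 1.92 to 6.74 kb. No detection calls were used here, so it was not tested which of these dim values lie above background.

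SOX15, the only SOXG gene and a factor of stratified epithelia and, in mouse, of muscle precursors, lay close to untreated on both arrays. Probe set 206122_at read 371 in B1 and 324 in B2, against 334 untreated, or 0.15 and -0.05 on the log2 scale. Probe set 217040_x_at read 53.7 and 53.4, against 58.9. The fitted difference of the first was 0.05 (SE 0.20; limma adjusted p = 0.98).

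The other SOX genes were dim. All 11 listed were measured, with 22 probe sets, none by a brightest probe set of mean log2 level 6, and none 2-fold different in both arrays. By the brightest probe set, 6 were higher and 1 lower in both, against 39.2% and 27.4% of all genes. Their median log2 difference was 0.17 in B1 and 0.17 in B2. SOX8, a SOXE gene, read 20.9 in B1 and 59.3 in B2, against 14.6 untreated, and SOX1, a SOXB gene, read 25.6 and 117, against 66.2, by 237472_at. These and SOX5 were named after their values were seen. SOX8 was high in B2, and this SOX1 probe set was low in B1 and high in B2. Another SOX1 probe set, 230982_at, read 48.7 and 47.8, against 47.7. SOX5, the SOXD partner of SOX6, read 25.1 and 25.4, against 27.1.

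**Figure D4:**
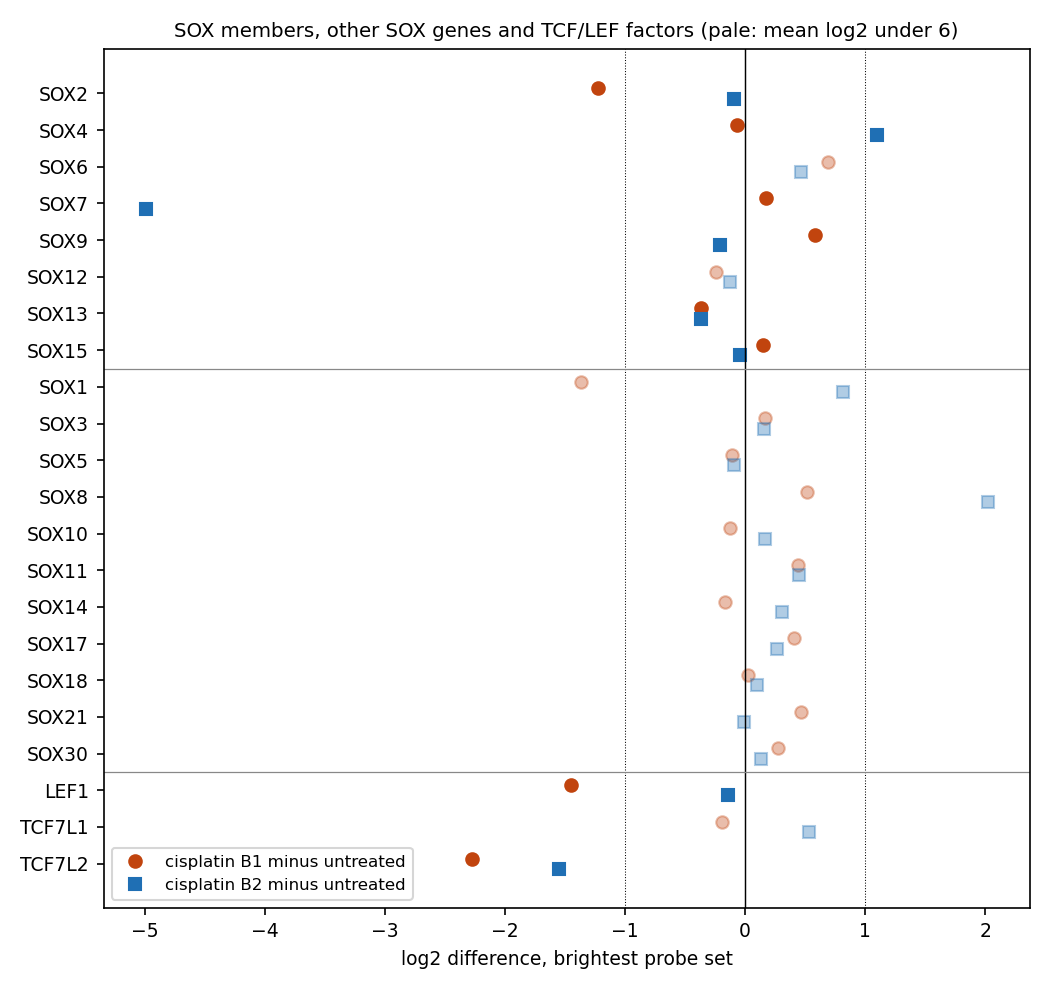
Log2 difference from the untreated array for the 8 members, 11 other SOX genes and 3 TCF/LEF factors by the brightest probe set, with circles for cisplatin B1 and squares for cisplatin B2. Pale symbols have a mean log2 level under 6. TCF7L2 is the only gene shown with both symbols beyond 2-fold in 1 direction.

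TCF/LEF factors carry an HMG box related to that of SOX proteins and pass on the Wnt signal with beta-catenin, which SOX7, SOX9 and SOX13 are known to restrain. Of 4 listed, 3 were measured. TCF7L2 read 172 in B1 and 284 in B2, against 833 untreated, so that both cisplatin arrays were low, by -2.27 and -1.55 on the log2 scale (fitted -1.91, SE 0.39; limma unadjusted p = 0.014, adjusted p = 0.95). Such a 2-fold difference in both arrays was seen in 0.678% of all genes downwards and 0.142% upwards. The mean over its 7 probe sets was -1.68 and -1.39. LEF1 read 65.9 and 163, against 180, low in B1 as SOX2 was, and TCF7L1 read 44.4 and 73.4, against 50.7. The mean over the 3 LEF1 probe sets was -0.65 and -0.01, against -1.45 and -0.15 by the brightest.

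The listed squamous and epithelial transcription factors went both ways. Of 18 listed, 15 were measured. By the brightest probe set 6 were higher and 6 lower in both arrays, beside 39.2% and 27.4% of all genes. None passed limma. OVOL1 was the one past 2-fold in both by the brightest probe set, at 349 and 404, against 130 untreated. The mean over its 2 probe sets was 0.90 and 1.12 on the log2 scale, which is under 2-fold in B1. The others with the largest moderated t were GRHL2 (-1.58 and -0.96), an epithelial identity factor, KLF4 (0.55 and 0.74) and KLF5 (0.29 and 0.73), zinc finger factors of stratified epithelium, PAX9 (-0.37 and -0.27), an oesophageal factor, and PITX1 (0.21 and 0.83), a keratinocyte identity factor. These values are of the brightest probe set. The mean over the 2 PAX9 probe sets was -0.14 and 0.18, so they differed in direction in B2. Over the 2 probe sets of each, KLF5 was at 0.14 and 0.46, KLF4 at 0.49 and 0.78 and PITX1 at 0.23 and 0.92. FOXE1 read 127 and 395, against 412, and GRHL3 47.7 and 102, against 108. Like SOX2, these were low in B1 and near untreated in B2 by the brightest probe set. Both were named after their values were seen. The mean over the 2 FOXE1 probe sets was -0.82 and 0.14, against -1.69 and -0.06 by the brightest, so the other was less low in B1. GRHL3 had 1 probe set, and the mean over the 4 of SOX2 was -1.01 and 0.07. Around SOX2 on the 3q arm, 13 genes were measured. In both arrays 1 of them was higher and 4 were lower, beside 39.2% and 27.4% of all genes. Their median log2 difference was -0.26 in B1 and 0.28 in B2. Of the 3q genes with a mean log2 level of at least 6, ZMAT3 (-0.43 and -0.47) and TBL1XR1 (-0.65 and -0.18) had the largest moderated t. Next came LAMP3 (-0.05 and 1.09), on both sides of untreated, and PRKCI (-0.43 and -0.00). The mean over the 3 PRKCI probe sets was -0.34 and 0.05.

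Of 8 pluripotency partners measured, only MYC (0.04 and 0.55) reached a mean log2 level of 6, while 5 were higher and none lower in both arrays, beside 39.2% and 27.4% of all genes. Of 11 regulators and effectors, 3 were higher and 4 lower in both by the brightest probe set, beside 39.2% and 27.4% of all genes. Their median log2 difference was -0.24 in B1 and 0.23 in B2. TGFBR2, a TGF-beta receptor, read 522 in B1 and 408 in B2, against 891 untreated. The TGF-beta signal transducer SMAD3 read 193 and 96.7, against 319. Both were lower on each cisplatin array by the brightest probe set, TGFBR2 by -0.77 and -1.13 on the log2 scale. The mean over the 2 TGFBR2 probe sets was smaller, at -0.40 and -0.57, so the other probe set differed less. Over the 4 SMAD3 probe sets it was -0.64 and -0.80. TGFBR1, the other TGF-beta receptor listed, lay on both sides of untreated, at -0.27 in B1 and 0.29 in B2 by its brightest probe set. The Notch factor RBPJ was at -0.68 and -0.36 and the Notch target HES1 at 0.45 and 1.19. None of these passed limma, and the genes of the lists were not tested as sets.

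The gene nearest each member in the pair of B1 and B2 differences was sought among 10209 genes with a mean log2 level of at least 6, over 3 arrays. For SOX2 it was GRHL3, an epithelial factor, at a Euclidean distance of 0.052, with 5 genes within 0.1. For SOX4 it was GTSF1 (0.010, with 27 genes within 0.1), for SOX9 HES7 (0.049, with 9) and for SOX6 TENT5A (0.029, with 15). For SOX7 it was ALDH1A3, a retinaldehyde dehydrogenase, at 0.17, with 0 genes within 0.1. For SOX13 (KMT5B), SOX12 (IAH1) and SOX15 (TRA2B) 128, 207 and 363 genes lay within 0.1, so their patterns were common ones. With 3 arrays such likeness is a description of these samples.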

How the data were processed

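Log2 values were computed from the deposited intensities, 1 per probe set and array, which the authors made with RMA per the submitters' processing notes. For that step the version and probe set definition were not given in the sources used here, and no detection calls were used. The intensities are linear, above 0 and not centred by gene, so no pseudocount was added. The 62 control probe sets were left out, leaving 54613, and symbols were updated by gene number to GRCh38.p14. Of these, 41091 probe sets carry 1 symbol, 1801 several and 11721 none here. No column was left unused. Cisplatin was compared with untreated in limma 3.58.1 (R 4.3.3; lmFit, eBayes, Benjamini-Hochberg) over all 54613, with 1 residual and 2.21 prior degrees of freedom; the single untreated array takes its spread from the cisplatin pair. Tested on simulated data, the fit returned the sizes of known changes but called none of them, so its calls carry little information with 3 arrays. A size rule asked for 2-fold in both cisplatin arrays. The number of arrays limits precision.

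Members and lists were chosen with earlier results of these data known, the members as named genes and not by a rule on their values. The genes named were all member probe sets, other SOX genes that were bright (mean log2 of at least 6) or 2-fold in both arrays, all TCF/LEF factors, and the 4 (squamous factors: 6) list genes at that level with the largest moderated t. No other SOX gene met that rule. SOX1, SOX5, SOX8, FOXE1, GRHL3, TGFBR1 and LINC01206 were named outside it. Like the genomic neighbours, promoter windows and motifs, they were chosen after the values were seen. Alternatives covered a filter on dim probe sets, median centring, quantile normalization, a pseudocount, the variance prior, the mean of probe sets and each cisplatin array alone.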

Additional observations from a re-analysis of the deposited data

How the results depend on the processing

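No paired analysis was possible because the untreated group holds 1 array. The limma count of 0 was also 0, which says nothing on stability, under the dim filter, median centring, quantile normalization, a variance prior with a trend and 1 probe set per gene, with 2018 to 2471 unadjusted p under 0.05 where all probe sets were fitted and 565 to 589 in the smaller tables; leaving out a cisplatin array leaves no residual degrees of freedom and gives differences only. The brightest probe set's sign turned with 1 array alone for SOX4 (-0.066 to 1.10), SOX7 (-4.99 to 0.17), SOX9 (-0.21 to 0.58) and SOX15 (-0.046 to 0.15), and SOX15 was -0.043 by the mean of its probe sets. Probe sets 2-fold higher in both arrays numbered 127, and 83 with the dim filter, 637 at 1.5-fold, 28 by gene and 201 to 1222 with 1 array alone; those lower numbered 360, and 200, 1460, 134 and 716 to 2103. Member probe sets lower in both numbered 5, and 3 with the dim filter and 10 to 12 with 1 array; those higher numbered 12, and 3 with the dim filter and 17 to 19 with 1 array. Fewer probe sets are tested under the dim filter; the other causes were not tested. The median of the other SOX genes was 0.16, and 0.12 median centred, 0.11 quantile normalized, 0.13 by the mean of probe sets and 0.17 with either array alone. That of squamous factors was -0.07, and -0.17 with the dim filter, 0.035 quantile normalized and -0.058 to 0.076 with 1 array. Under the dim filter pluripotency partners (1 gene) had 0.30 and cartilage targets (2 genes) 0.36. Sign also changed for list medians with 1 array alone, at -0.26 in B1 and 0.28 in B2 for the 3q genes and -0.24 and 0.23 for the regulators, which were at 0.10 by the mean of probe sets, where squamous factors were at 0.021. Sizes moved within 1 direction for SOX2 (-1.23 to -0.092 with 1 array), SOX7 (-1.56 with the pseudocount of 16) and SOX6 (0.28 by the mean of probe sets). SOX12 was at -0.025 by that mean, but its 2 probe sets lay on opposite sides of untreated.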
